A study of Homo sapiens with 2 samples.

Results

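The zinc finger genes of chromosome 19 are the protein-coding genes of GENCODE 44 (genome build GRCh38) on that chromosome whose symbol is ZNF followed by digits and, in some, a letter. The rule found 246 of the 1476 protein-coding genes of the chromosome, and the 1230 others served as the comparison. ATAC-seq, in which the Tn5 transposase cuts open chromatin and leaves sequencing adapters there, was performed on 293T cells, a transformed line from human embryonic kidney that expresses SV40 large T antigen. The control cells were given fresh medium without supplement (a label names the treatment PBS), and the treated cells fresh medium with 0.5 mM methylglyoxal (MGO), a by-product of glycolysis that forms adducts on histones, for 12 h. A peak list of 1 library of 50000 cells was analysed for each condition, so no difference between control and MGO has a replicate check. Both lists come from a single established line, which is a limit of the model.

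Zinc finger proteins of this kind bind DNA through tandem fingers, each a short fold around a zinc ion held by cysteine and histidine. Most of those on chromosome 19 arose by tandem duplication and lie in clusters, and many of their products carry a KRAB domain that recruits TRIM28 (KAP1) and histone methyltransferases to silence transposable elements. The long last exon, which encodes the fingers, is a known site of repressive chromatin.

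The label was checked against the coding sequences of the annotation. A finger match was found in all 246 genes, 3 or more matches in 245, and the exception was ZNF428 with 1. The median was 12 matches per gene, and the most were 36 in ZNF208, 34 in ZNF729 and 31 in ZNF91. Of the 1206 other genes with a coding sequence, 1163 had 0. Peaks near the transcription start sites (TSSs) of genes that mark 293T cells were also looked for. VIM, NEFL, NEFM and PAX2 (4 of 4) had a TSS peak in control and 3 of 4 in MGO, all but NEFM. Of genes that mark other cell types, PTPRC, ALB and CDH5 had no TSS peak in either list, and MYOD1 had one in control but not in MGO. A peak at a start site says that DNA is open there, not that the gene is transcribed.

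Throughout, a TSS peak was a peak of q at most 0.01 lying on, or up to 1000 bp from, the start of any annotated transcript of the gene. In control cells 153 of the 246 zinc finger genes had one, or 62.2% (95% Wilson interval 56.0 to 68.0%), beside 63.3% of all 20033 protein-coding genes of the genome. In MGO-treated cells 140 did, or 56.9% (50.7 to 62.9%), beside 57.8% of all protein-coding genes. The other genes of chromosome 19 had a TSS peak less often, 602 of 1230 in control (48.9%) and 516 in MGO (42.0%). The difference was 13.3 percentage points in control (Newcombe interval 6.45 to 19.7) and 15.0 in MGO (8.12 to 21.6). Against the genes of all other chromosomes it was −2.10 points in control (−8.34 to 3.77), so the zinc finger genes stood apart from their chromosome and not detectably from the genome. The control list is the longer, with 23458 peaks of this q compared with 15738. When the same number was taken from each by −log10 p, 46.3% of zinc finger genes had a control peak, below the MGO share. With a limit of 5 on −log10 q in both lists, control stayed higher, 26.4% compared with 13.4%. The direction of the change thus depended on how peaks were selected. Why the MGO list is shorter was not tested. All intervals cover counting error alone and take genes as independent, which neighbours that share a peak are not.

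The start sites of zinc finger genes also differed from those of the other genes in base composition. In the 2000 bp around the canonical start, the median GC content was 52.2% at zinc finger genes and 58.8% at the other genes of the chromosome. The ratio of observed to expected CpG dinucleotides, a mark of CpG islands, was over 0.5 at 218 of 246 zinc finger genes (88.6%) and at 723 of 1230 others (58.8%). Within that class, which was defined after the data were seen, the order turned. A control peak was present at 64.7% of zinc finger genes and 72.1% of the others, a difference of −7.38 points (−14.6 to −0.460). In MGO the same difference was −2.10 points (−9.59 to 5.17). At starts with a lower CpG ratio, 12 of 28 zinc finger genes had a control peak (42.9%) and 81 of 507 others (16.0%). By GC content the order did not turn. Within 5 groups by rank of GC content, which balance it only coarsely, the difference was 27.8 points (21.1 to 34.4). The part of CpG content in the presence of peaks was not tested beyond these values.

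By cluster, the zinc finger genes differed widely among themselves. A cluster was a run of at least 5 of them with gaps of up to 500 kb, which gave 10 clusters with 232 genes and left 14 genes outside. The highest share was in the cluster from ZNF565 to ZNF573 (chr19:36182276-37817300), where 24 of 26 genes had a TSS peak in control and the same number in MGO (92.3%, 75.9 to 97.9%). No gene of this cluster with a TSS peak in control was without one in MGO, although ZNF790 had 2 in control and 1 in MGO. The 2 genes without one in either list were ZNF585A and ZNF793. The lowest share was in the cluster from ZNF101 to ZNF254 (chr19:19668796-24129968), the longest at 4.46 Mb, where 13 of 37 genes had a peak in control (35.1%, 21.8 to 51.2%) and 12 in MGO (32.4%). These intervals did not overlap, but the 2 clusters were picked as the highest and lowest of the 10. Several genes of the first also share a peak, so the intervals are no test of a difference between clusters. The cluster from ZNF175 to ZNF331 held 39 genes, of which 18 had a peak in control and 16 in MGO, and the largest cluster by number, ZNF264 to ZNF446, held 43, of which 33 and 28 did. In ZNF628 to ZNF835, 14 of 16 genes had one in control and 11 in MGO.

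**Figure D1:**
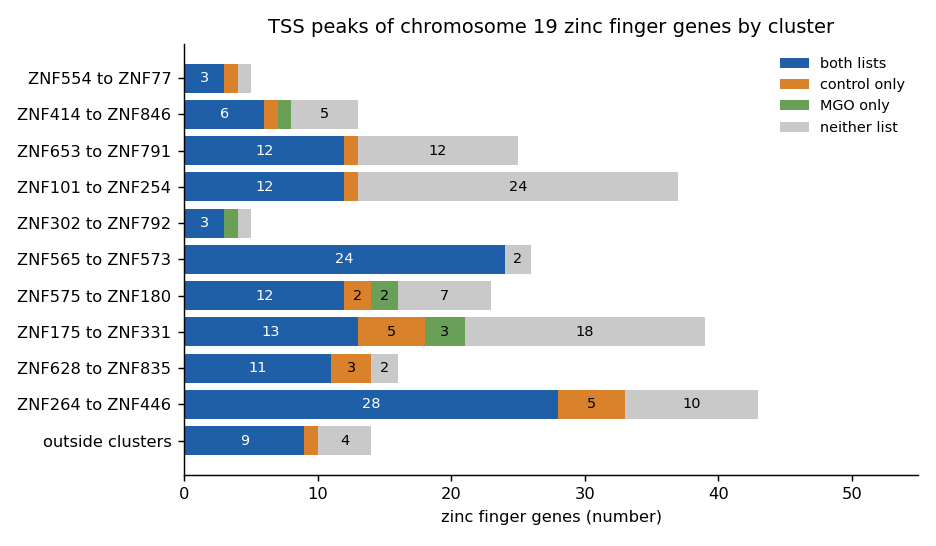
Number of zinc finger genes (horizontal axis) in each cluster of chromosome 19, named by its first and last gene, with a TSS peak in both lists (blue), in control only (orange), in MGO only (green) or in neither (grey). All 24 genes with a peak in the cluster ZNF565 to ZNF573 had it in both lists, whereas 24 of 37 genes of ZNF101 to ZNF254 had none.

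The order of genes with and without a peak was followed along the clusters. Of 222 neighbouring pairs of zinc finger genes inside clusters, 100 had a control peak at both genes, 51 at neither and 71 at 1 of them, so 68.0% were alike. Clusters with a high or low share of peaks, and the 12 control peaks that lie at several zinc finger genes, make neighbours alike by themselves, and whether neighbours were alike beyond this was not tested. In the cluster ZNF101 to ZNF254, 10 consecutive genes from ZNF506 to ZNF85 had no control peak, the next 8 from ZNF430 to ZNF100 all had one, and the following 11 from ZNF43 to ZNF730 had none. The MGO list gave the same blocks but for ZNF100, whose control peak was the weakest of the 8 (−log10 p 4.38) and which had an MGO peak above the q limit (−log10 q 1.38). The median CpG ratio of the 3 blocks was 0.499, 0.506 and 0.579 in this order. The authors removed reads that map to several places, so the share of 50-base words of the start window with a copy elsewhere in the genome was counted. Its median was 3.12% in the first block, 5.53% in the block with peaks and 5.89% in the last. Of all 246 zinc finger genes, 31 had over 10% of such words, as had 162 of the 1230 other genes of the chromosome. Of these 31, 17 had a peak in both lists, 4 in control only, 1 in MGO only and 9 in neither. Over all 246 these counts were 133, 20, 7 and 86. The longest runs with a control peak were 19 genes from ZNF264 to ZNF551, of which 18 also had an MGO peak, and 14 genes from ZNF565 to ZNF420, all with an MGO peak.

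**Figure D2:**
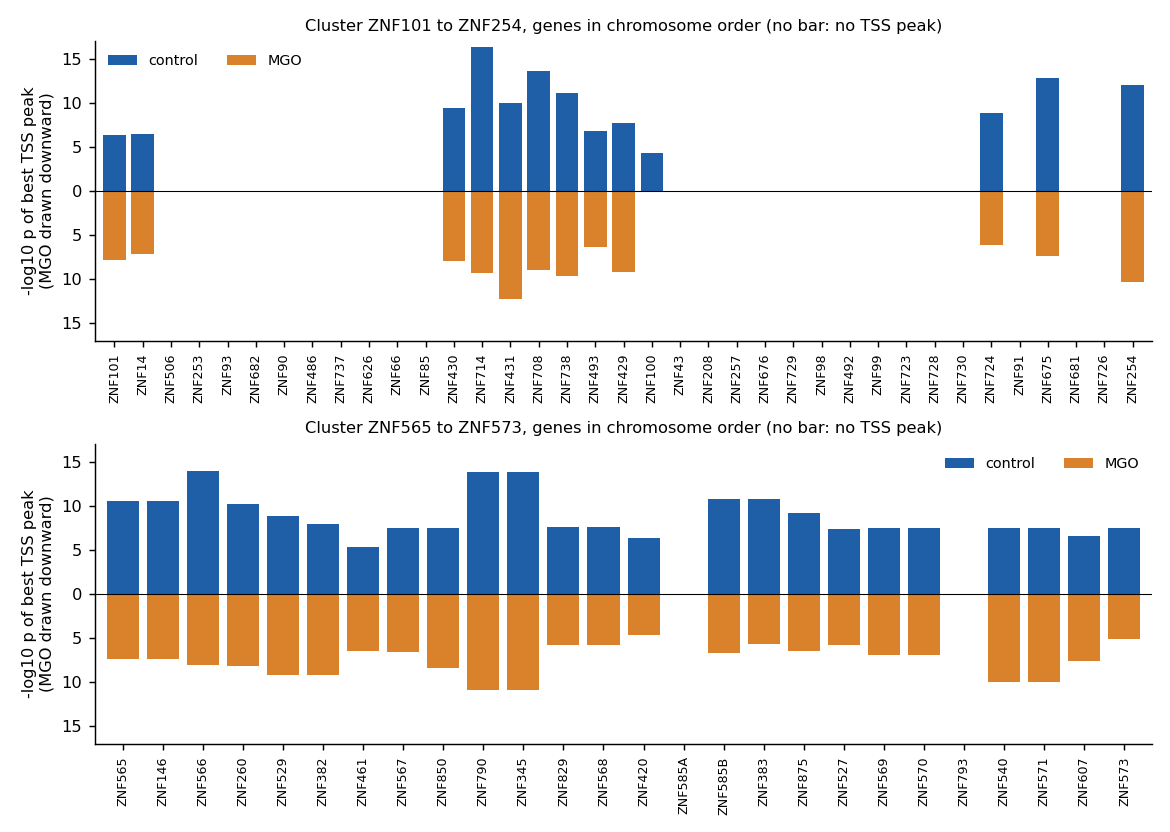
The −log10 p of the strongest TSS peak of each gene in 2 clusters, with genes in chromosome order along the horizontal axis, control upward in blue and MGO downward in orange. In the upper panel the 8 genes from ZNF430 to ZNF100 stand between runs of 10 and 11 genes without a peak in either list. In the lower panel all but ZNF585A and ZNF793 have a peak in both.

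The strongest control TSS peak of any zinc finger gene lay in the block of 8, at ZNF714 (chr19:21081970-21082803). Its −log10 p was 16.4 in control and 9.26 in MGO, and its fold enrichment over background 5.62 and 4.18. ZNF431, next to it, had the strongest MGO peak (chr19:21141836-21142433), with a −log10 p of 12.2 in MGO and 9.99 in control. By contrast ZNF91, which is known to silence SVA retrotransposons, and ZNF93, known to silence LINE-1 elements, had no peak of any strength in either list although they belong to the same cluster. Their upstream sequences are shown because they resemble each other closely. Over the 250 bases before the RefSeq start, global alignment gave 92.0% identity of ZNF714 with ZNF431, 85.2% with ZNF91 and 82.0% with ZNF93. The sequences are from RefSeq (GRCh38.p14, matching GRCh38 here), on the strand of the gene, cut where an annotated exon begins. Capitals mark the CCAAT box and the ETS motif CCGGAAG, on either strand.
ZNF714, peak in both lists, chr19:21081953-21082158, plus strand: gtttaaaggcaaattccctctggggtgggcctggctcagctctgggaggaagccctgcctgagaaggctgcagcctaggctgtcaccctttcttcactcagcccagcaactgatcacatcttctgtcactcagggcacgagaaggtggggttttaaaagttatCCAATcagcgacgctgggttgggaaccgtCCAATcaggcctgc
ZNF431, peak in both lists, chr19:21141790-21142023, plus strand: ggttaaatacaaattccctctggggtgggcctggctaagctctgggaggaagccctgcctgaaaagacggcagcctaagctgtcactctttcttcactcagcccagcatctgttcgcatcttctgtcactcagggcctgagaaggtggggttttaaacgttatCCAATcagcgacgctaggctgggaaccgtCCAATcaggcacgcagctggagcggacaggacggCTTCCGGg
ZNF91, peak in neither list, chr19:23395472-23395721, minus strand: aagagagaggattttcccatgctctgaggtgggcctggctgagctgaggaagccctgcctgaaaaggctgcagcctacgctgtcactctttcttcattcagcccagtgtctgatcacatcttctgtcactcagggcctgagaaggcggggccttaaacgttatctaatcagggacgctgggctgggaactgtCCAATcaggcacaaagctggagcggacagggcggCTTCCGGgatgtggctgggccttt
ZNF93, peak in neither list, chr19:19900696-19900912, plus strand: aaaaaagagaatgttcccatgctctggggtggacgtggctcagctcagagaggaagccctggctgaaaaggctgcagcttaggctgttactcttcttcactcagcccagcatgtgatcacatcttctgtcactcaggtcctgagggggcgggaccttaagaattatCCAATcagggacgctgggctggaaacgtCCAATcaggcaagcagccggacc

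Among the genes shown, the CCAAT box, bound by NF-Y, thus stood at starts with and without a peak. The ETS motif, bound by a family of transcription factors, had 1 match in the whole promoter of ZNF431 and 1 in that of ZNF91. It had 0 in those of ZNF714 and ZNF93. In the cluster ZNF101 to ZNF254, the median identity of the 250 upstream bases was 67.4% over 66 pairs of genes that both had a control peak, 81.2% over 136 pairs that both had none and 78.4% over 204 mixed pairs. Promoters of the open cluster ZNF565 to ZNF573 were less alike, with a median of 59.6% over 300 pairs.

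Short motifs were counted in the RefSeq promoters, 250 bases before to 50 after the start, on both strands. A promoter was listed for 216 of the 246 zinc finger genes and 951 of the 1230 others. The ETS motif CCGGAAG was found in 98 of the 216 (45.4%, 38.9 to 52.0%), in 13.0% of the other genes of the chromosome and in 10.3% of all 35116 promoters of the table. The difference within the chromosome was 32.3 points (25.4 to 39.3). It was 27.4 points (18.6 to 36.3) among genes with a control peak and 25.8 points (18.2 to 33.5) among genes with a CpG ratio over 0.5. All motif intervals take promoters as independent. Those of duplicated genes can resemble each other closely, so the intervals are too narrow. The match did not go along with the peak inside the family, since 45.3% of zinc finger genes with a control peak and 45.5% of those without had it. Among other genes of the chromosome these shares were 17.9% and 7.84%. The ETS matches of zinc finger genes lay close to the start, 99 of 110 between 100 bases before and 50 after it (90.0%), compared with 97 of 146 (66.4%) at the other genes. Their median place was 15 bases before the start, and 48 bases before it at the other genes.

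The clusters differed in these motifs as they did in peaks, but not in the same order. The ETS motif was in 72.4% of 29 promoters of ZNF101 to ZNF254, the cluster with the lowest share of genes with a control peak, and in 28.0% of 25 promoters of ZNF565 to ZNF573, that with the highest share. It was in 67.5% of 40 promoters of ZNF264 to ZNF446 and 62.5% of 32 of ZNF175 to ZNF331, and in 8.33% of 24 of ZNF653 to ZNF791. The CCAAT box was in all 29 promoters of ZNF101 to ZNF254 and in 24.0% of those of ZNF565 to ZNF573. Over the whole family it was in 53.7%, compared with 37.6% of the other genes, a difference of 16.1 points (8.71 to 23.3) that was 6.94 points (−2.32 to 16.2) among genes with a control peak and 11.0 points (lower bound 2.86) among genes with a CpG ratio over 0.5. Inside the family the CCAAT box was in 48.2% of promoters of genes with a control peak (40.1 to 56.4%) and 63.6% of those without (52.5 to 73.5%). At the other genes of the chromosome these shares were 41.3% and 33.8%. For the other motifs the interval of the difference included 0. The SP motif GGGCGG was in 67.6% and 66.6%, the AP-1 motifs TGAGTCA and TGACTCA in 2.31% and 3.79%, and the CRE TGACGTCA in 3.24% and 3.47%. The NRF1 motif was in 2.31% and 2.21%, the ZBTB33 motif in 0.926% and 0.210%, and the YY1 motif in 0.926% and 2.52%. A match is a run of letters and does not show that a factor was bound.

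**Figure D3:**
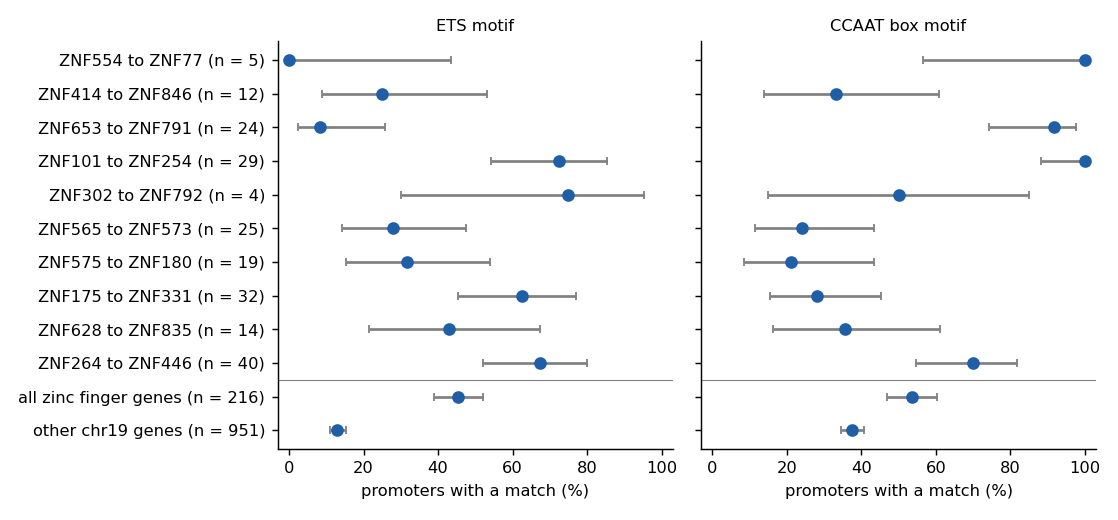
Share of RefSeq promoters with an ETS motif (left) or a CCAAT box (right) in each cluster, in all zinc finger genes and in the other genes of chromosome 19, with 95% Wilson intervals as bars. The ETS share of zinc finger genes is 45.4% and that of the other genes 13.0%, and clusters run from 0 to 75.0%.

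Of the 153 zinc finger genes with a control TSS peak, 133 also had an MGO TSS peak (86.9%, 80.7 to 91.4%), beside 89.1% of all protein-coding genes with a control peak. The other genes of chromosome 19 retained the peak in 479 of 602 cases (79.6%), 7.36 points less (0.409 to 13.0). Retained means an MGO TSS peak at the same gene, which need not overlap the control peak. Where the strongest control peak had to overlap an MGO peak, retention was 85.6% at zinc finger genes. The difference was then 7.71 points (0.560 to 13.6). The difference in retention depended on how peaks were selected. It was 1.91 points (−3.80 to 6.14) with all deposited peaks and 2.87 points (−4.32 to 8.17) with equal numbers of peaks. With 1 start per gene it was 6.50 points (−0.785 to 12.4), and at a fold enrichment of at least 4 it was 31.5 points (16.4 to 45.0). It also depended on which measure was used to group the genes. The zinc finger peaks were more enriched, with a median fold enrichment of 3.85 in control compared with 3.25, and a median −log10 p of 7.01 compared with 6.32. When genes were compared within 5 groups by rank of control fold enrichment, the difference was −1.03 points (−7.39 to 5.32). In groups by rank of −log10 p it was 4.07 points (−1.85 to 10.0), and by rank of width 9.48 points (3.13 to 15.8). By rank of the GC content of the start window it was 4.83 points (−1.99 to 11.6). Such groups balance a measure only coarsely. Among zinc finger genes, retention rose with the control −log10 p, from 16 of 24 in the weakest of 5 groups (66.7%) to 40 of 40 in the strongest. It rose likewise at the other genes of the chromosome, from 71 of 127 (55.9%) to 106 of 111 (95.5%). The control peaks of the 20 zinc finger genes without an MGO TSS peak had a median −log10 p of 5.67, and those of the 133 with one 7.46. At the other genes these medians were 5.19 and 6.61.

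The control-only genes were led by ZNF256 (−log10 p 8.56), ZNF320 (8.37) and ZNF524 (7.73), followed by ZNF223 (6.62), ZNF773 (6.61), ZNF584 (6.49), ZNF766 (6.37), ZNF611 (6.12), ZNF587 (5.82), ZNF121 (5.76), ZNF615 (5.58) and ZNF222 (5.42). The remaining 8 were weaker. ZNF580 and ZNF581 shared 1 peak of 1435 bp, and the peak of ZNF536, a neural gene outside the clusters, lay at an alternative start. Weaker MGO peaks, with a q between 0.01 and 0.1, lay at 11 of the 20 genes, compared with 76 of 123 control-only genes among the others of the chromosome (61.8%). That of ZNF766 missed the limit of 2 on −log10 q with 1.99, and that of ZNF256 had 1.09. ZNF320, ZNF223, ZNF121, ZNF615 and ZNF222 had no MGO peak of any strength in the list. Copied 50-base words made up 22.9% of the window of ZNF773 and 19.1% of that of ZNF587. Of the 17 control-only genes with a RefSeq promoter, 11 had the ETS motif (64.7%, 41.3 to 82.7%), and of the 122 retained genes 52 did (42.6%, 34.2 to 51.5%), with intervals that overlapped. The promoter of ZNF256 is shown as that of the strongest peak lost. It holds CTTCCGGAAG, in which the ETS motif reads on both strands.
ZNF256, peak in control only, chr19:57947707-57947956, minus strand: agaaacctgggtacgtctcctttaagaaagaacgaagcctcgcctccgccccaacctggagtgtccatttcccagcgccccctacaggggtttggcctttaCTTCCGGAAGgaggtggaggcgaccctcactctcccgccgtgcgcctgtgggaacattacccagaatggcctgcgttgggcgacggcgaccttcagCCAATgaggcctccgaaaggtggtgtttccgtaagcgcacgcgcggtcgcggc

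In the other direction, 7 genes had a TSS peak in MGO only, 7.53% of the 93 without a control peak, beside 3.89% of all such protein-coding genes and 5.89% of the others on the chromosome. They were ZNF649 (MGO −log10 p 5.83), ZNF350 (5.43), ZNF575 (5.33), ZNF30 (4.80), ZNF561 (4.65), ZNF283 (4.51) and ZNF331 (4.48). All were weak, and the highest lay below the median of the MGO peaks of zinc finger genes, 6.33. ZNF575, ZNF30 and ZNF561 had a control peak with a q above 0.01. ZNF649, ZNF350 and ZNF331 belong to the cluster ZNF175 to ZNF331, which also held 5 of the 20 control-only genes. ZNF350 encodes ZBRK1, a partner of BRCA1, and ZNF331 is an imprinted gene. ZNF568, whose mouse counterpart represses a placental Igf2 promoter, kept its peak with a −log10 p of 7.64 in control and 5.76 in MGO. ZNF274, which binds the 3′ ends of zinc finger genes and recruits SETDB1, kept its peak with 7.74 and 6.18.

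**Figure D4:**
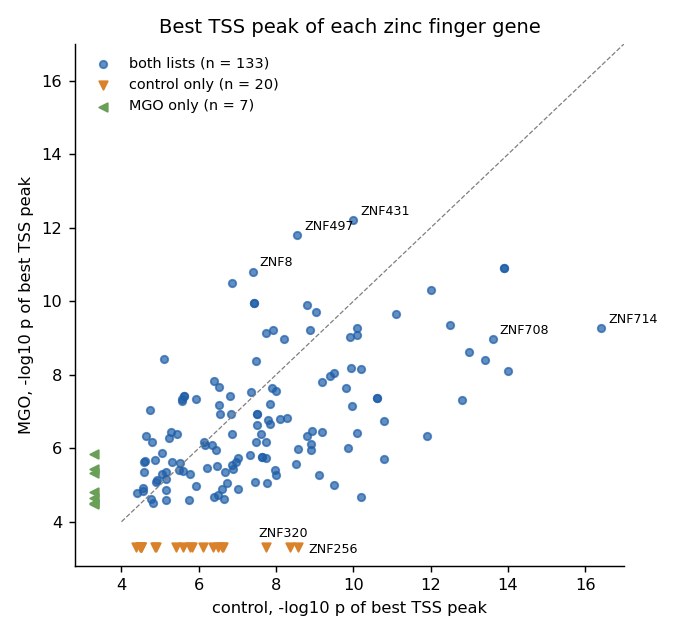
The −log10 p of the strongest TSS peak of each zinc finger gene in control (horizontal) and MGO (vertical), with genes of control only and of MGO only drawn at the lower and left margin and a dashed line of equal values. Most of the 133 genes with both peaks lie below the line. The control-only peaks reach 8.56 at ZNF256 and the MGO-only peaks 5.83 at ZNF649.

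Where both lists had a peak, that of the MGO list was mostly the smaller. Of 121 distinct pairs of overlapping peaks at zinc finger genes, 78 were narrower in MGO (64.5%, 55.6 to 72.4%), and at the other genes of the chromosome 52.8% were, a difference of 11.7 points (1.50 to 21.1). The median ratio of MGO to control width was 0.910 compared with 0.971. The −log10 p was also lower in 78 of the 121 pairs, and the difference from the other genes, 8.46 points, had an interval across 0 (−1.67 to 17.9). Fold enrichment was lower in 91 pairs (75.2%), with a difference of −1.06 points (−10.4 to 7.16). The 5 genes with the strongest control peaks were ZNF714, ZNF566 (−log10 p 14.0 in control, 8.10 in MGO), ZNF345 and ZNF790, which share 1 peak (13.9 and 10.9), and ZNF708 (13.6 and 8.97), and each was weaker in MGO. Among the strongest in MGO, ZNF431, ZNF497 (8.55 in control, 11.8 in MGO) and ZNF8 (7.39 and 10.8) were higher in MGO. ZNF345 and ZNF790 were also among the strongest in MGO but lower there than in control. These 2 sets were picked by value in 1 list each, so a fall in the first and a rise in the second are in part set by the choice. The widest control peaks, chosen by that width, included those of ZNF576 and ZNF700. The peak of ZNF576 was 1774 bp wide in control and 714 in MGO, and that of ZNF700 was 1743 and 578. ZNF524 (1598 bp in control) had no MGO peak. ZNF846 had the most TSS peaks, 3 at its several starts.

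More of the width was lost upstream of the start than downstream. When the gene's strand was taken into account, peaks covered the canonical start of 59.3% of zinc finger genes in control and 51.6% in MGO. The largest drop was 200 bp upstream, from 45.5% to 31.3%, a difference of 14.2 points, and at that place the other genes of the chromosome went from 33.0% to 27.2%. Of the 112 zinc finger genes covered there in control, 71 were also covered in MGO (63.4%, 54.2 to 71.7%), compared with 302 of 406 others (74.4%), a difference of −11.0 points (−21.1 to −1.53). It was −17.8 points (−31.5 to −3.84) at 400 bp upstream. At the start itself the difference had the other sign, 6.23 points (−1.72 to 13.0), and at 400 bp downstream it was −10.6 points (−23.4 to 1.95), both with intervals across 0. In overlapping pairs, the upstream edge moved toward the start by a median of 58 bp at zinc finger genes and 27 bp at the others, and the downstream edge by 15 bp and −2 bp. The place 200 bp upstream was chosen because the drop was largest there.

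**Figure D5:**
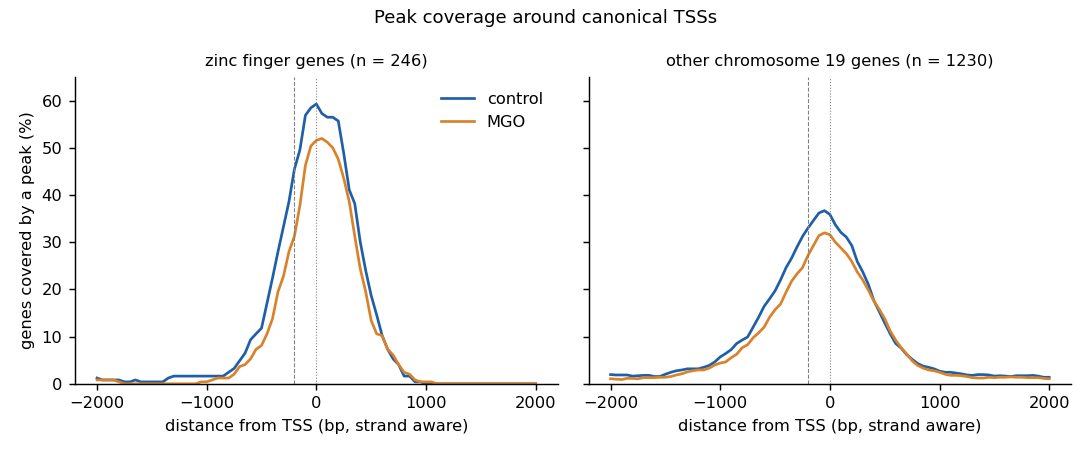
Share of genes whose DNA was covered by a peak (vertical axis, %) at each distance from the canonical start (horizontal axis, bp, upstream to the left), for zinc finger genes (left) and other chromosome 19 genes (right) in control (blue) and MGO (orange). The dashed line marks 200 bp upstream, where coverage of zinc finger genes fell from 45.5% to 31.3%.

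Some peaks lay at starts of more than 1 gene, which was not particular to zinc finger genes. Counted within each set, the strongest control TSS peaks of 153 zinc finger genes were 144 distinct peaks. Those of 602 other genes of the chromosome were 498. At starts of zinc finger genes the control list had 151 distinct peaks, of which 113 were at 1 gene, 12 at several zinc finger genes and 28 at a zinc finger gene and another gene, classes that overlap. In MGO there were 135 distinct peaks, 101 of them at 1 gene. The peak between ZNF345 and ZNF790, which are transcribed in opposite directions, was of this kind, and for ZNF790 it lay at an alternative start (chr19:36850254-36851159 in control).

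Away from all of their annotated starts few zinc finger genes had a peak. Another peak lay over the body of 4 zinc finger genes in control (1.63%) and 2 in MGO (0.813%), beside 16.2% and 8.68% of all protein-coding genes. The others of the chromosome had one in 9.51% and 6.91% of genes, so the difference was −7.89 points in control (−9.91 to −4.98) and −6.10 in MGO (−7.76 to −3.63). The count of 4 rests on leaving out the surroundings of every annotated start of a gene, and with 1 start per gene it was 18. Per Mb of gene body there were 0.665 control peaks over zinc finger genes and 4.67 over the others. Of the 5 control peaks, 4 lay at the start of a neighbour: that in ZNF473 at ZNF473CR, those in ZNF586 at ZNF552 and ZNF587B, and that in ZNF814 at ZNF587. The only one away from any annotated start was in an intron of ZNF254 (chr19:24075477-24075978, −log10 p 6.73, fold enrichment 3.90), and it had no MGO peak. Overlap with an MGO peak was found for 3 of these 5 (60.0%, 23.1 to 88.2%), compared with 78 of 126 over the others (61.9%).

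The last coding exon, which carries the fingers, was over 1000 bp from the gene's own starts in 212 zinc finger genes, and in 0 of them did a peak overlap it in control or MGO. When weaker peaks were included, 1 did in MGO. At the other genes of the chromosome, 27 of 945 such exons overlapped a peak in control (2.86%) and 13 in MGO (1.38%). Words with a copy elsewhere in the genome were counted in the start windows only, not over these exons or the rest of the gene bodies. Since reads mapping to several places were removed, a missing peak there does not by itself show closed chromatin. Whether copied sequence lowered these counts was not tested. Over the 14.4 Mb spanned by the clusters there were 170 control peaks, of which 141 were at starts of zinc finger genes, 23 at other starts and 6 away from both. In MGO these counts were 152, 126, 21 and 5. The rest of the chromosome had 89 control peaks away from starts among 599. The density of peaks was 11.8 per Mb in the clusters and 13.6 per Mb outside in control, and 10.5 and 11.5 in MGO.

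The genes of the silencing pathway that zinc finger proteins work through were also examined. Of 18 genes, 17 had a TSS peak in control and 16 in MGO, all 16 in both, beside 63.3% in control and 57.8% in MGO of all protein-coding genes. TRIM28, the corepressor, which lies on chromosome 19 itself, had a −log10 p of 7.67 in control and 10.0 in MGO. SETDB1, the methyltransferase, had 8.62 and 5.19, and its partner ATF7IP 15.0 and 9.25. The heterochromatin protein genes CBX1 (5.99 and 9.52), CBX3 (7.81 and 8.88) and CBX5 (14.4 and 8.38) had a peak in both lists. TASOR (7.07 and 12.5), MPHOSPH8 (10.5 and 6.89) and PPHLN1 (22.4 and 16.7), the genes of the HUSH complex, also kept theirs. Peaks in both lists were likewise found at ATRX, HDAC1, HDAC2, MORC2 and SMARCAD1, and at CHD3 and CHD4, where the strongest TSS peaks of the 2 lists did not overlap. The maintenance DNA methyltransferase gene DNMT1, also on chromosome 19, had a peak in control alone (−log10 p 6.86), and the histone chaperone gene DAXX had none in either list.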

How the data were processed

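Per the labels and the paper's methods, the authors sequenced ATAC-seq libraries of 50000 cells as paired-end 50 bp reads, aligned them with BWA 0.7.15 to GRCh38, discarded mitochondrial reads and those mapping to several places with Picard (2.16.0 in the submitters' processing notes, a different version in the paper), subsampled to equalize depth, and called broad peaks with MACS2 (version not given in the sources used here). The methods also name consensus peaks from an Irreproducible Discovery Rate step, which compares replicates, and these were not used here. The deposited lists hold for each peak a fold enrichment (a ratio), a −log10 p-value, a −log10 q-value and a score, which was not used. They hold no read counts. The methods give an approximate read number per sample before subsampling, but the depth kept after it and the reads behind a peak are not given in the sources used here. The number 2 follows the condition in the peak names, so further libraries may exist, and none was analysed here.

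Peaks of −log10 q 2 or more on the standard chromosomes were used, the threshold of the authors' methods. Genes, starts and exons were from GENCODE 44, and coordinates are GRCh38, counted from 1. The strongest TSS peak of a gene was that of highest −log10 p. Shares have Wilson, differences Newcombe intervals at 95%, and differences within strength groups Mantel-Haenszel weights. No test between conditions was made with 1 library each. The named genes were up to 12 control-only and 8 MGO-only genes by −log10 p, the 5 strongest in each list, the 5 widest control peaks, the gene with most TSS peaks, body peaks, 6 genes of known role and the silencing pathway. Members, lists and motifs were chosen with earlier results of these data known. Computations used Python 3.11.15, numpy 2.4.6, pandas 2.3.3, scipy 1.17.1, Biopython 1.88 and matplotlib 3.10.9. Overlaps and weighted differences were tested on simulated data. The simulated weighting had far more genes and groups than here, so weighting over 5 groups was not itself tested. A gene of the list that marks other cell types is not reported here.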

Additional observations from a re-analysis of the deposited data

How the results depend on the processing

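Of 136 alternative values for 9 results, 110 stayed within the interval of the reported value (or, for a count, within 1.5 times it), 22 moved outside it and 4 changed sign. Stricter limits removed most peaks. At a −log10 q of at least 5 the share of zinc finger genes with a TSS peak was 26.4% in control and 13.4% in MGO, retention 40.0%, its difference from the other genes 0.335 points, genes with a body peak 0, and coverage kept 200 bp upstream 29.2%. At a fold enrichment of at least 4 these were 24.4%, 13.0%, 40.0%, 31.5 points, 1 and 20.0%, and 0% of body peaks were retained. With equal numbers of peaks the control share was 46.3%, below the MGO share of 56.9%, so the order of the conditions turned. With all deposited peaks the MGO share was 63.8% and retention 91.4%, and it was 94.1% when weak peaks were admitted in MGO alone. In these settings the difference in retention was 1.91 and 1.92 points, and with equal numbers of peaks 2.87, each with an interval across 0. The difference in control share was 23.3 points against genes inside the cluster spans and 27.8 within groups by GC content. It was −2.10 against other chromosomes and −7.38 in the class of high CpG ratio. The difference in retention was −2.65 points against other chromosomes and −1.03 within groups by fold enrichment. With 1 start per gene 18 genes had a body peak, and away from any start 1 did, with 0% retained. Without any 1 cluster the control share ran from 58.6 to 67.0%, the MGO share from 52.7 to 61.2%, the difference in control share from 9.69 to 18.0 points, retention from 84.5 to 88.9% and its difference from 4.93 to 9.32 points, with an interval above 0 for 7 of 10. The difference in ETS motif share ran from 25.8 to 37.0 points over its alternatives. Alternatives by CpG ratio, for the ETS motif and for coverage upstream were chosen after seeing the data. The cause of these moves was not tested, other than the smaller number of peaks under stricter limits. No paired analysis was possible because each condition has 1 library. How many reads lie behind a single peak is unknown, which limits what a missing peak shows.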
